A study of Mus musculus with 5 samples.

Results

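The 6 genes Foxp1, Foxp2, Foxp4, Satb1, Bcl11a and Bcl11b encode transcription factors that mark or specify neuronal subtypes, and their loci were searched for chromatin regions that carry Pou4f1 in the embryonic mouse retina. A region was taken as belonging to a locus if it overlapped the gene body (GENCODE M21 annotation, mm10) or lay within 150 kb of it. This gave 9 of the 8038 regions in the deposited table. Foxp1 had 3, Satb1 had 2, Bcl11a had 3 and Bcl11b had 1, and Foxp2 and Foxp4 had 0. Only 2 of the 9 had the start of another coding gene between themselves and the gene they were assigned to.

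The regions come from CUT&Tag, in which an antibody on chromatin recruits a transposase that inserts sequencing adaptors into the DNA beside it. All libraries were made from wild-type retinas at E16.5, the dissociated cells of 4 retinas in each. They so hold all the retinal cells present at that age and not ganglion cells alone. The groups compared here were rabbit anti-Pou4f1 (n = 2 libraries) and rabbit IgG as the negative control (n = 2 libraries). One of the IgG columns is named IgG and the other negative control. A further library with an antibody to H3K9AC was not analysed here.

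Pou4f1, also called Brn3a, is a POU homeodomain factor of retinal ganglion cells, the output neurons of the eye. Foxp proteins are forkhead factors that bind DNA as dimers, with themselves or with one another, and Foxp1 and Foxp2 are expressed in the F-type ganglion cells. Satb1 binds AT-rich DNA and organises chromatin, and it is known in direction-selective ganglion cells. Bcl11a and Bcl11b, also called Ctip1 and Ctip2, are zinc finger proteins that act mostly as repressors with the NuRD and BAF chromatin complexes and specify projection neurons in the cortex.

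POU homeodomain factors of the Brn3 class favour an AT-rich sequence, and 3 of the 9 regions held an exact match to the Brn3 consensus. The stretches around these matches are shown because they hold the only exact matches to that consensus in the 9 regions. They are given 5′ to 3′ on the plus strand of mm10, with the matched bases in capitals. The Foxp1 intronic region had a pair of matches on opposite strands that overlap by 7 bases, so the 13 capitals cover both. The match in the region near Eif4e3 and the match in the Bcl11a upstream region were identical at 10 of 10 positions, and each ran into a TAATTA, the core of many homeodomain sites, whose last base lies 1 base beyond the capitals.
Foxp1 intronic region, chr6:99468163-99468202: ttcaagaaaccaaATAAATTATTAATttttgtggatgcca
Region near Eif4e3 in the Foxp1 locus, chr6:99669510-99669709: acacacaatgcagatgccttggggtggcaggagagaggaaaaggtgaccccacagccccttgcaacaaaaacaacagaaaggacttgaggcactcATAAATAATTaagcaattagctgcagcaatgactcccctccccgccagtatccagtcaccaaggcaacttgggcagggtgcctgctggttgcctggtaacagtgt
Bcl11a upstream region, chr11:23996296-23996495: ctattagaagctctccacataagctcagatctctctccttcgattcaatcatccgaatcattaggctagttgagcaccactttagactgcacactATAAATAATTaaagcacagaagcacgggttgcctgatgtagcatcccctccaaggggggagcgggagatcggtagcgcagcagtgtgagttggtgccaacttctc

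The region downstream of Satb1 and the intronic region of Bcl11b had no Brn3 match, and are shown because they lie far from any start and rank among the upper regions of the table. Capitals mark TAATTA and, in the Satb1 sequence only, also the octamer ATGCAAAT, the classical POU site. Each stretch is 300 bases of the region.
Region downstream of Satb1, chr17:51631922-51632221: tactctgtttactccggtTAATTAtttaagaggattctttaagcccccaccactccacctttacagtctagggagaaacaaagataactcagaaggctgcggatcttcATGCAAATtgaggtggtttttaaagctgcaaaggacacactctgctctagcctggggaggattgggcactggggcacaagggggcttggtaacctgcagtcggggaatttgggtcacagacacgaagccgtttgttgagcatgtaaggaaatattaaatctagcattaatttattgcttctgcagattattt
Bcl11b intronic region, chr12:107959891-107960190: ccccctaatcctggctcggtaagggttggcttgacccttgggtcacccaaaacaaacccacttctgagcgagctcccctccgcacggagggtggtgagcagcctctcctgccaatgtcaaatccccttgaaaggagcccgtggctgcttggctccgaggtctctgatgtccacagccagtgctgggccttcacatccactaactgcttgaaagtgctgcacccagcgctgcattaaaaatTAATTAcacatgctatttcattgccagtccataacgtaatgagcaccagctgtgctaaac

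The map of the loci places the 9 regions. The midpoints of 4 regions lay within 1 kb of an annotated transcript start, and 5 lay farther away, at distances of 2.85 kb for the region near Eif4e3, 16.6 kb for the Foxp1 intronic region, 17.9 kb for the Bcl11a upstream region, 43.5 kb for the Bcl11b region and 97.3 kb for the region downstream of Satb1. Among all regions, 5147 of the 8028 regions on chromosomes were near a start.

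**Figure D1:**
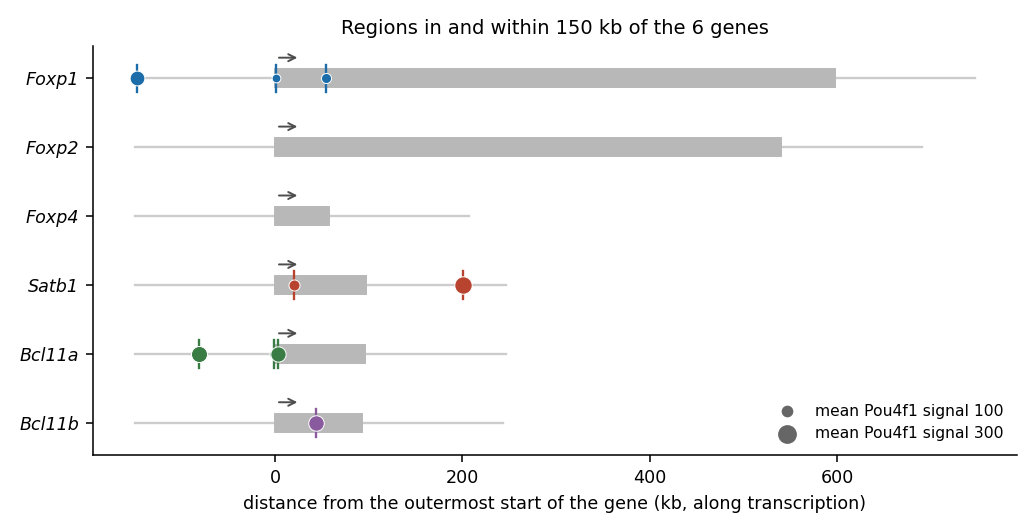
Positions of the 9 regions as distance in kb from the outermost start of each gene, counted along transcription. Grey bars are gene bodies, thin lines the 150 kb on each side, arrows the direction of transcription and dots the regions, with the dot area in proportion to the mean Pou4f1 signal. Foxp2 and Foxp4 have 0 regions, and the dots of Satb1 (201 kb) and Foxp1 (-147 kb) lie farthest from their starts.

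The values are signal, the mean scaled coverage over a region, and not read counts. In each library the signal multiplied by the length of the region was a whole multiple of a fixed step for 100% of the values above 0 (tolerance 0.05), and 1 step is taken here as 1 base covered once. A low signal therefore rests on few bases. The table lists regions that were called from these same libraries, so the tests of Pou4f1 against IgG given below are not independent of how the regions were chosen.

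In 9 of 9 regions the lower Pou4f1 value was above the higher IgG value, which also held for 96.5% of all regions in the table. By limma on log2(signal + 1) with Benjamini-Hochberg adjustment over all 8038 regions, 8 of the 9 were higher with Pou4f1 and 0 were lower at an adjusted p below 0.05, where 64.8% of all regions were called higher. All 9 differences were positive, so the count of lower regions was 0 at an unadjusted p below 0.05 as well. The called share differed with the background values. It was 99.7% over the 1835 regions where both IgG values were 0, 39.4% where 1 of them was 0 and 74.1% where neither was. Among the 9 regions, 5 were at 0 in both IgG libraries and all 5 were called, and 4 were at 0 in 1 library, of which 3 were called.

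**Figure D2:**
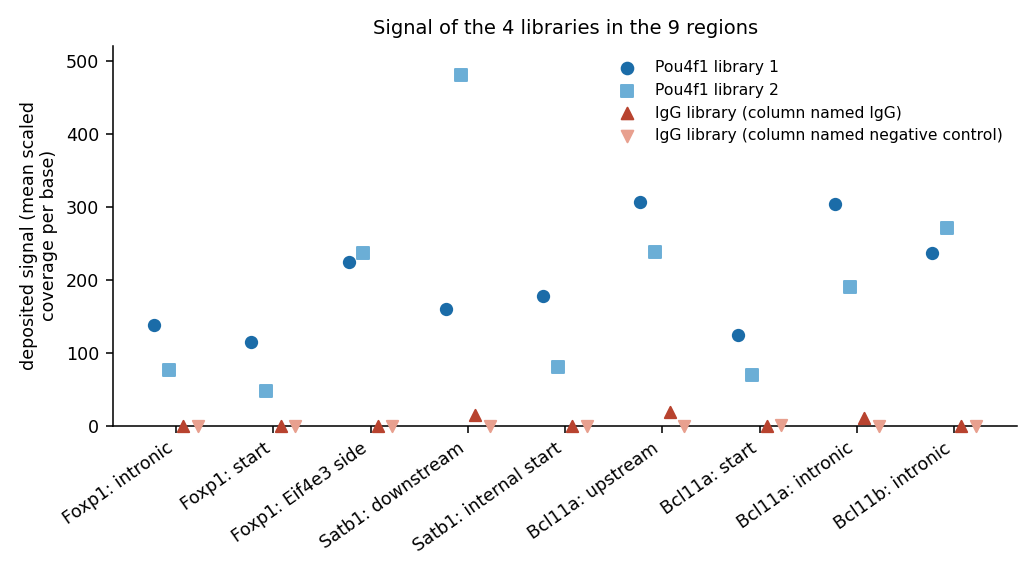
Deposited signal (mean scaled coverage per base, linear axis from 0) of the 2 Pou4f1 and 2 IgG libraries in the 9 regions, 1 point per library. Every Pou4f1 point lies above the IgG points of its region, the highest IgG value is 18.0 in the Bcl11a upstream region, and the pair of Pou4f1 values lies farthest apart in the region downstream of Satb1.

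Foxp1 is a gene of 597 kb on chromosome 6 (ENSMUSG00000030067.17, chr6:98925338-99522721, minus strand) with 31 annotated transcripts. Of its 3 regions, 1 lay just inside the outermost start, 1 in an intron and 1 beyond the 5′ end. All 3 were at 0 in both IgG libraries.

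The Foxp1 start region (chr6:99521390-99522309, 920 bp) had a signal of 115 in Pou4f1 library 1 and 47.2 in library 2, and 0 in both IgG libraries. These were the lowest Pou4f1 values of the 9 regions in both libraries, and still did not overlap IgG (limma adjusted p = 0.00637). The signal rests on 2350 and 710 covered bases, a mean depth of 2.55 and 0.772 over the region. The region ranked 7336 of 8038 by mean Pou4f1 signal and 4745 of the 5147 near a start. It does not hold the first base of any Foxp1 transcript. Its edge lay 412 bp inside the outermost start, in intron 1 of the 2 transcripts that span it, and its midpoint 688 bp upstream of the start of the coding transcript Foxp1-224. It had 66.6% G and C and a ratio of observed to expected CpG of 0.926, and held 1 octamer, 393 bp from its midpoint.

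The Foxp1 intronic region (chr6:99467704-99468495, 792 bp) had a signal of 138 and 75.7 with Pou4f1 and 0 in both IgG libraries (limma adjusted p = 0.00336). The first library was again the higher, and the groups did not overlap. Its midpoint lay 54.6 kb downstream of the outermost start, in intron 1 or 2 of the 4 transcripts that span it, and no exon touched it. For most transcripts the same region is upstream, since 27 of the 31 transcripts, 18 of the 20 coding ones among them, start 3′ of it, the nearest 31.7 kb away. It ranked 6464 of 8038 and 2379 of the 2881 regions away from a start. The pair of overlapping Brn3 matches lay 81 and 84 bp from its midpoint. The amplicon that the study used for ChIP-qPCR at Foxp1 (179 bp, chr6:99468137-99468315) lay inside it and held both matches. The paper reports that ChIP-qPCR at its selected elements, with Foxp1 and Satb1 among the primers listed, was in keeping with its CUT&Tag data.

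The third region (chr6:99668889-99670395, 1507 bp) had the highest mean signal of the Foxp1 locus, and other coding genes start between it and Foxp1. Its signal was 225 and 237 with Pou4f1 and 0 in both IgG libraries, with both Pou4f1 libraries at nearly the same level (limma adjusted p = 0.00222). It ranked 2548 of 8038. Its midpoint lay 147 kb upstream of Foxp1 but 2.85 kb upstream of the start of Gm20696 and 2.87 kb upstream of the start of Eif4e3, which encodes a cap-binding protein of the translation initiation factor family. Gm20696 is a coding gene that runs from beside Eif4e3 into the Foxp1 body on the same strand. The starts of Gpr27, a G protein-coupled receptor, and Prok2, a secreted prokineticin, were also closer than that of Foxp1. The single Brn3 match lay 32 bp from the midpoint, with CTAATG, a LIM-homeodomain core, 368 bp to one side and 260 bp to the other.

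Foxp2 (540.6 kb, ENSMUSG00000029563.16, chr6:14901349-15441977, plus strand) and Foxp4 (57.5 kb, ENSMUSG00000023991.16, chr17:47867133-47924645, minus strand) had 0 regions in their bodies, within 150 kb and within 300 kb. The nearest listed region lay 300 kb from Foxp2, with a signal of 153 and 495 with Pou4f1 and 0 in both IgG libraries, and the coding start closest to it was that of Ppp1r3a, 154 kb away. The nearest to Foxp4 lay 365 kb away, with a signal of 349 and 415 against 0 and 43.3 in IgG, 0.124 kb from the start of Taf8, a subunit of the general factor TFIID. The table lists only called regions, so the signal over Foxp2 and Foxp4 is unknown and is not shown to be 0.

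An empty locus was not rare among genes of these sizes. Of the 75 coding genes of 500 to 600 kb, 69.3% had a region in the body, as was the case for Foxp1, and 17.3% had none within 150 kb, as was the case for Foxp2. Of the 2515 coding genes of 50 to 100 kb, the class of Foxp4, Satb1, Bcl11a and Bcl11b, 40.5% had a region in the body and 18.7% had none within 150 kb. A region within 1 kb of a start of the gene was found for 3 of the 6 genes, Foxp1, Satb1 and Bcl11a, for 33 of the 75 coding genes of 500 to 600 kb, for 36.7% of those of 50 to 100 kb and for 24.9% of all 21938 coding genes.

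Satb1 (97.1 kb, ENSMUSG00000023927.15, chr17:51736187-51833290, minus strand) had a region at an internal start and a distal region, with no other coding gene closer to either. The next listed region lay 556 kb away, at the start of Tbc1d5.

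The Satb1 internal start region (chr17:51812401-51813802, 1402 bp) had a signal of 177 and 80.1 with Pou4f1 and 0 in both IgG libraries, with no overlap (limma adjusted p = 0.00425). It lay 20.2 kb downstream of the outermost start and held the start of the coding transcript Satb1-207, 422 bp from its midpoint. It was the only one of the 9 regions that held a start of its gene. All 1402 bp were annotated as untranslated exon in at least 1 transcript, while the principal transcript Satb1-208 has its intron 1 there, so no sequence of it is printed. At 72.1% it had the highest share of G and C of the 9, above that of 97.3% of all regions, and it held 10 copies of the GC box GGGCGG. It ranked 5659 of 8038.

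The region downstream of Satb1 (chr17:51631759-51632644, 886 bp) had a signal of 159.9 and 481 with Pou4f1, and of 13.8 and 0 with IgG. The second Pou4f1 value was the highest of any library in the 9 regions, and the groups did not overlap, the lower Pou4f1 value being 11.6 times the higher IgG value. The IgG value rests on 160 covered bases, the commonest number in that library, seen in 887 of the 4322 regions above 0. The log2 difference was 6.18 ± 1.70 (SE, n = 2 against 2) and was just past the threshold (limma adjusted p = 0.0492). The call was lost in 6 of 12 alternatives, among them IgG doubled (limma adjusted p = 0.111) and the fits without a Pou4f1 replicate. In those fits the spread comes from the IgG libraries alone, so they do not test the Pou4f1 replicates. The log2 difference was 6.97 without Pou4f1 replicate 1 and 5.39 without replicate 2.

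By mean signal this region ranked 1305 of 8038, the highest of the 9, and 762 of the 2881 away from a start. It lay 103543 bp beyond the 3′ end of Satb1 and 201 kb from its start, and after Satb1 the next coding start in either direction, that of Tbc1d5, was 453 kb away. The nearest annotated start of any kind was that of a lincRNA 97.3 kb away. The octamer lay 168 bp and the TAATTA 259 bp from the midpoint, both on the same side as the ChIP-qPCR amplicon of Satb1 (138 bp, chr17:51631887-51632024). That amplicon held the TAATTA and ended before the octamer.

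Bcl11a (96.1 kb, ENSMUSG00000000861.15, chr11:24078056-24174123, plus strand) had a region on each side of its start and a distal one. The start pair lay close together, 1 ending 280 bp before the start and 1 beginning 2999 bp after it, and they differed in level.

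The Bcl11a start region (chr11:24076699-24077776, 1078 bp) had a signal of 125 and 69.8 with Pou4f1, and of 0 and 0.577 with IgG. The groups lay far apart, the lower Pou4f1 value being 121 times the higher IgG value, which itself rests on 7 covered bases. The log2 difference was 6.23 ± 0.56 (SE, n = 2 against 2, limma adjusted p = 0.00495). The call was lost in 3 of 12 alternatives. In 1 of them each column was scaled to its total over the listed regions (limma adjusted p = 0.108), which is not a library size. The others were the fits without a Pou4f1 replicate, where the spread comes from the IgG libraries alone. The log2 difference was 5.82 without Pou4f1 replicate 1 and 6.64 without replicate 2. The region ranked 6830 of 8038. The region lies over Gm12063, a lincRNA on the same strand as Bcl11a, with 575 bp in its exons and its start 678 bp from the midpoint, so a signal at Bcl11a and one at Gm12063 cannot be told apart here.

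The Bcl11a intronic region (chr11:24081055-24082173, 1119 bp) had a signal of 304 and 190.2 with Pou4f1, and of 10.9 and 0 with IgG, without overlap. Both Pou4f1 values were above those of the start region next to it. The log2 difference was 6.13 ± 1.48 (SE, n = 2 against 2, limma adjusted p = 0.0399). The call was lost in 6 of 12 alternatives, among them IgG doubled (limma adjusted p = 0.0987) and the fits without a Pou4f1 replicate. In those fits the spread comes from the IgG libraries alone. The log2 difference was 5.79 without Pou4f1 replicate 1 and 6.46 without replicate 2. The region lay in intron 1 of the 5 transcripts that span it, 944 bp downstream of the start of Bcl11a-204. It ranked 2242 of 8038 and 1068 of the 5147 near a start. None of the 6 motifs searched was found in it.

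The Bcl11a upstream region (chr11:23996234-23997247, 1014 bp) had a signal of 307 and 237 with Pou4f1, and of 18.0 and 0 with IgG. Its IgG value, from 240 covered bases, was the highest of the 9 regions, and the lower Pou4f1 value was 13.2 times as high. This was the one region not called, with a log2 difference of 5.96 ± 1.72 (SE, n = 2 against 2, limma adjusted p = 0.0538). It was called in 3 of 12 alternatives. With a pseudocount of 10 it was called, as were 92.6% of all regions. The other calls came from the fits without an IgG library, where the lone IgG library gives no spread of its own. It ranked 1870 of 8038 and 1025 of the 2881 away from a start. Its midpoint lay 81.3 kb upstream of Bcl11a and 78.3 kb from the start of A830031A19Rik, a coding gene on the minus strand between them. The Brn3 match lay 345 bp from the midpoint, near one end, with CTAATG 384 bp from the midpoint on the same side.

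Bcl11b (93.2 kb, ENSMUSG00000048251.15, chr12:107910403-108003602, minus strand) had a single region, in the interior (chr12:107959683-107960190, 508 bp). Its signal was 236 and 271 with Pou4f1 and 0 in both IgG libraries, and the replicates were close (limma adjusted p = 0.00222). The region was the shortest of the 9 and ranked 2132 of 8038 by mean signal, but 5399 by signal times length. It lay 43.7 kb downstream of the start, in intron 3 of the 3 introns of Bcl11b-201, with no exon in it and the next coding start, that of Setd3, 219 kb away. It had 51.0% G and C, a TAATTA 197 bp from its midpoint and an E-box CAGCTG, the site of many basic helix-loop-helix factors, 243 bp from it. The closest other region lay 175 kb from the gene at the start of Setd3, and 5 regions lay within 300 kb.

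By mean signal the 9 regions ran from 81.0 at the Foxp1 start to 320.4 downstream of Satb1, where the median of the table was 173. Of the 4 regions near a start, 3 were under that median, and of the 5 away from a start only the Foxp1 intronic region was. The whole table differed in the same direction, with a median of 158 near a start and 212 away from one. The order between neighbours is not firm. The means of the region near Eif4e3, the Bcl11a intronic, the Bcl11b intronic and the Bcl11a upstream regions ran from 231 to 272, closer together than the replicates of either of these Bcl11a regions.

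The 2 Pou4f1 libraries differed in the same way as over the whole table. The 4 regions near a start were all lower in library 2, at 0.411 to 0.626 of library 1, and 83.4% of all regions near a start were lower in library 2, with a median ratio of 0.701. Of the 5 away from a start, the Foxp1 intronic region (0.547) and the Bcl11a upstream region (0.774) were lower in library 2, and the region near Eif4e3 (1.05), the Bcl11b region (1.15) and the region downstream of Satb1 (3.01) were higher. Away from starts 37.2% of regions were lower in library 2, with a median ratio of 1.16. A ratio below that of the Satb1 region was found in 99.6% of all regions, and 8.71% of those away from a start were more than 2-fold higher in library 2. The rank of that region was accordingly 4974 in library 1 and 576 in library 2.

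**Figure D3:**
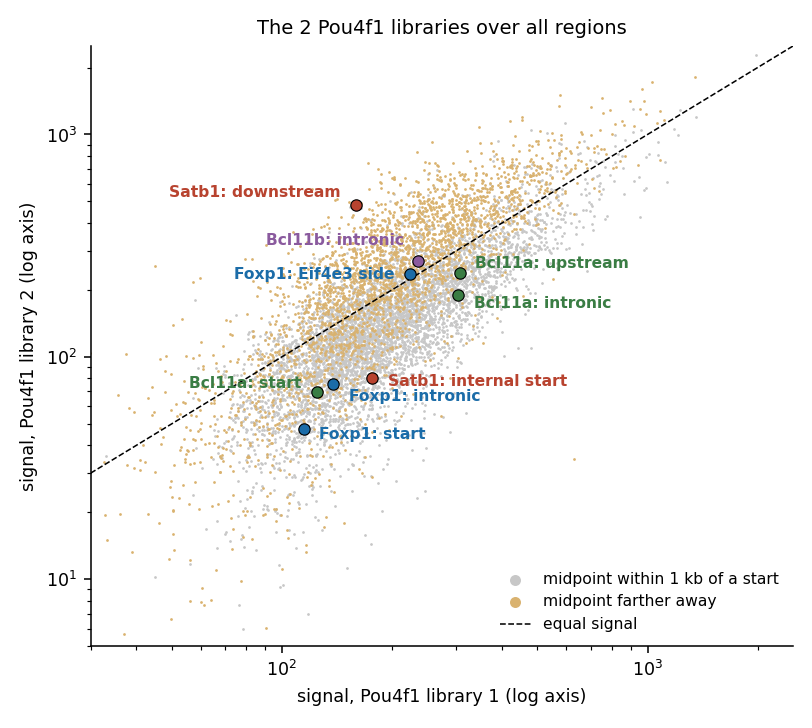
Signal of Pou4f1 library 2 against library 1 (both log axes) for all regions on chromosomes, grey where the midpoint is within 1 kb of an annotated start and ochre elsewhere, with the 9 regions as outlined dots coloured by locus. The dashed line marks equal signal, 18 regions at 0 in library 2 are left out and 4 lie outside the axes. The region downstream of Satb1 lies well above the line (ratio 3.01) and the Foxp1 start region lowest below it (0.411).

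The sequences split along the same line. The 4 regions near a start held 60.1 to 72.1% G and C with observed to expected CpG ratios of 0.663 to 0.926, against a median of 62.7% and 0.772 for all regions near a start. The 5 others held 45.5 to 51.0% with ratios of 0.147 to 0.304, against 49.0% and 0.243 for all regions away from a start. The Satb1 internal start region, at 72.1%, was above the upper quartile of 66.4% of the regions near a start.

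Motifs were searched on both strands. The Brn3 consensus was in the central 200 bp of 2 of the 9 regions, the Foxp1 intronic one and the one near Eif4e3, and in the central 200 bp of 4.38% of all regions and 11.0% of those away from a start. Over whole regions it was in 3 of 9, all 3 away from a start, and in 11.1% of the table and 26.1% of the regions away from a start. With 1 mismatch allowed, 4 of the 9 centres held it, the region downstream of Satb1 and the Bcl11a intronic region joining. The centres of 13.4% of the table and of 32.6% of the regions away from a start did. Of the regions near a start, the class of the Bcl11a intronic region, 2.60% did. The octamer was in 0 of 9 centres (0.747% of the table) and in 2 whole regions (3.64%), the Foxp1 start and the Satb1 downstream one. The homeodomain core TAATTA was in 1 centre (3.49%) and 4 whole regions (14.1%), CTAATG in 0 centres (4.96%) and 2 whole regions (22.5%), CAGCTG in 0 centres (13.6%) and 3 whole regions (47.5%), and GGGCGG in 0 centres (37.5%) and 3 whole regions (66.2%). A TAATTA in 2 of the regions shares 5 bases with the Brn3 match. A match describes these letters and is not a measured binding site.

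**Figure D4:**
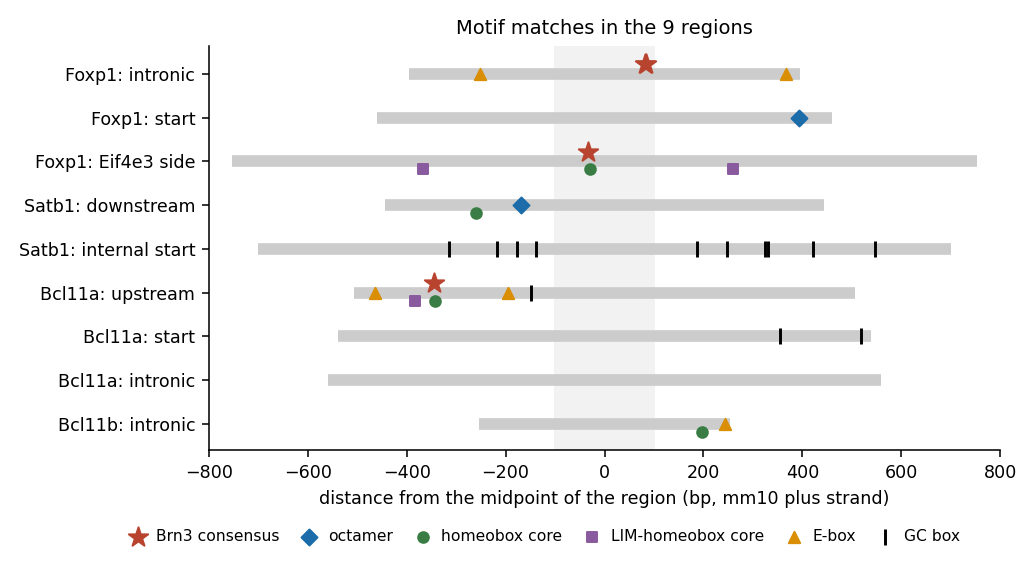
Matches to 6 motifs along the 9 regions, as distance in bp from the midpoint on the plus strand, with each region as a grey bar and the central 200 bp shaded. Brn3 matches (stars) lie in the shaded part of the Foxp1 intronic region and of the region near Eif4e3 and toward one end of the Bcl11a upstream region, and the GC boxes gather in the Satb1 internal start region (10).

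Among other factors of ganglion cell subtypes, Tbr1, Etv1, Tbx20, Zic1 and Irx1, there were 6 regions in the bodies or within 10 kb, of which 2 were called higher and 0 lower, where 64.8% of all regions were called higher, with a median log2 difference of 5.18. At the same distance the 6 genes described here had 6 regions with 6 called and a median of 6.46, and the median of the whole table was 5.22. Regions with 0 in both IgG libraries made up 1 of the 6 around the subtype factors and 4 of the 6 around the genes described here. They made up 1835 of the 8038 regions in the whole table. At the start of Etv1, an ETS factor, the signal was 151 and 84.9 against 0 and 12.0 in IgG (limma adjusted p = 0.0599). At the start of Tbx20, a T-box factor, it was 189 and 75.7 against 4.07 and 0 (limma adjusted p = 0.0273).

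Foxp and Bcl11 proteins act with corepressors and chromatin remodellers, and 11 genes for such partners, with the relative Foxp3 among them, were looked up. They had 11 regions within 10 kb, 5 called higher and 0 lower, where 64.8% of all regions were called higher, with a median log2 difference of 4.96. Nr2f1, a nuclear receptor, had 4 of them, and Gatad2b, Mta1 and Mta2, subunits of NuRD, had 2 each. In the Gatad2b region that is not at the start, the lower IgG value (77.6) was above the higher Pou4f1 value (66.5). Its log2 difference was -0.841 and it was not called (limma adjusted p = 0.197). The region at the start of Hdac2, a histone deacetylase, had a signal of 341 and 252 against 6.18 and 7.21 in IgG (limma adjusted p = 0.00376), and that at the start of Gatad2b 335 and 386 against 18.0 and 0 (limma adjusted p = 0.0479). That at the start of Mta2 had 152 and 169 against 0 and 21.8 and was not called (limma adjusted p = 0.0772). Foxp3, Ctbp1, Nr2f2, Hdac1, Chd4 and Smarca4 had 0 regions within 10 kb.

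**Figure D5:**
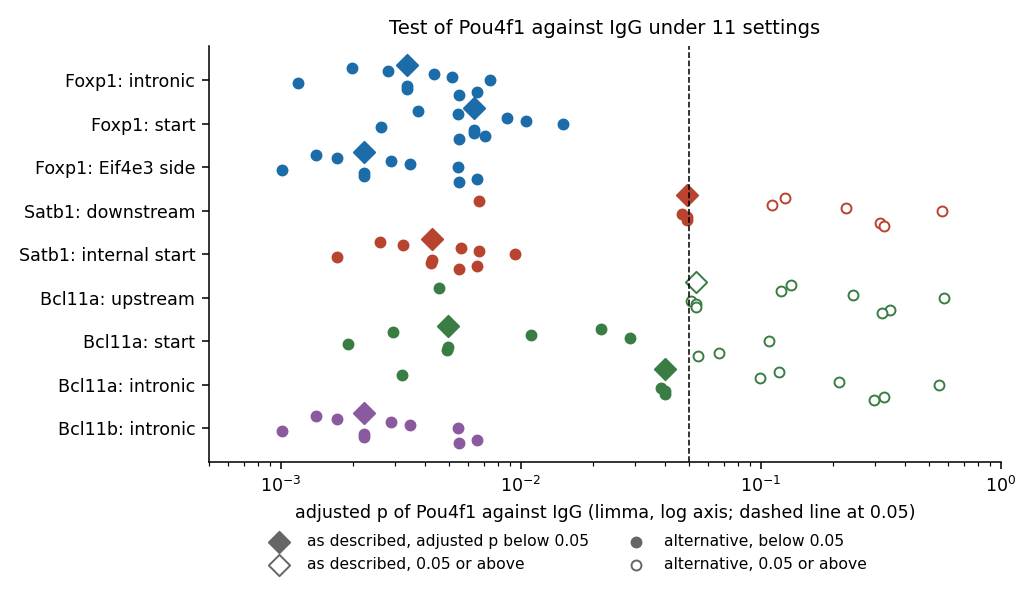
Adjusted p of Pou4f1 against IgG (limma, log axis, dashed line at 0.05) for the 9 regions as described (diamonds) and under 10 alternatives (circles), filled where below 0.05; the fits without an IgG library are not drawn. The 3 Foxp1 regions, the Satb1 internal start region and the Bcl11b region stay to the left of the line throughout, and the region downstream of Satb1 and the Bcl11a regions have points on both sides. Those that stay to the left are the regions at 0 in both IgG libraries, where multiplying IgG leaves the difference unchanged. The fits without a Pou4f1 library take their spread from the IgG libraries alone.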

How the data were processed

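CUT&Tag libraries of wild-type E16.5 retinas were made with anti-Pou4f1 (n = 2) and rabbit IgG (n = 2). The authors trimmed and masked the reads, aligned them to mm10 with Bowtie2 2.4.5, ran SEACR with its relaxed setting, and deposited 1 signal value per region and library. The sources used here do not give the depth of the libraries, the scaling of the signal, or whether libraries were pooled for calling. The column named negative control was taken as IgG, the only negative control that the study names. The labels do not tie the libraries to separate litters, so p-values measure the spread between these libraries only.

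Signal times region length was a whole multiple of 45.0 and 61.2 in Pou4f1 libraries 1 and 2, of 76.2 in the IgG library and of 88.9 in the negative control library. The smallest signal a library can show in a region is its step divided by the length of that region in bp.

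Members were all regions in or within 150 kb of the 6 genes (GENCODE M21). The genes, lists and rules were chosen with earlier results of these data known. Regions named were those at a start, the 3 highest per locus, those with a Brn3 consensus, those with IgG at or above Pou4f1, those with an amplicon, and all regions of loci with 6 or fewer, which took all 9. For other genes, counts within 10 kb and the values at a start were given, and the Gatad2b region with IgG above Pou4f1 was named as well.

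The comparison of Pou4f1 with IgG used log2(signal + 1) and limma 3.58.1 (R 4.3.3) without covariates, fitted over all 8038 regions, two-sided, with Benjamini-Hochberg adjustment. With 2 libraries a group, an exact permutation test cannot go below p = 0.333. Log2 differences of single regions are printed only where an IgG library had signal. Medians over lists and over the table include regions at 0 in both IgG libraries, whose difference depends on the pseudocount. Motifs were read from GRCm38.p6 (mm10) on the 8028 regions on chromosomes with Python 3.11.15, pandas 2.3.3 and pysam 0.24.0. Both steps were tested on simulated data. Alternatives were the pseudocount, the scaling of IgG, a prior spread that follows the mean, filters on signal and length, each library left out, other distance limits and other motif windows.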

Additional observations from a re-analysis of the deposited data

How the results depend on the processing

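Over 12 alternatives for each of the 9 regions, the log2 difference kept its direction in all, 90 of the 108 values stayed on their side of the threshold, 15 lost a call and 3 gained one. The calls of the 3 Foxp1 regions, the Satb1 internal start region and the Bcl11b region held in all 12. These are the regions at 0 in both IgG libraries, a kind of which 99.7% over the whole table was called. Multiplying IgG leaves a 0 unchanged. In the fits without a Pou4f1 replicate the spread comes from the IgG libraries alone, which show none in these regions. That these calls held was thus largely fixed in advance and does not show that they are firm. The number of regions called higher (8) was 5 with each column scaled to its total over the listed regions. These totals are not library sizes. Making them equal multiplied the IgG columns by 10.3 and 7.51 and the Pou4f1 columns by 0.515 and 0.547. It moved the median log2 difference of the table from 5.22 to 2.74, so it takes out part of the difference between antibodies by construction. The number for Satb1 (2) was 1 with a pseudocount of 0.1, with IgG multiplied by 2 or 4 and with column totals. That for Bcl11a (2) was 1 with a pseudocount of 0.1 and with IgG multiplied by 2 or 4, and 0 with column totals. In the 4 fits that leave out 1 library, the lone library of a group is assumed to vary like the others, so their counts are not given. In those without a Pou4f1 replicate, the calls lost were all at regions with signal in an IgG library. Of all regions, 5205 were called higher, against 3492 with a pseudocount of 0.1, 2949 and 2152 with IgG multiplied by 2 and 4, and 1821 with column totals. With a pseudocount of 10, where all 9 regions were called, 7443 of all regions (92.6%) were called higher too. In the fits without an IgG library the lone IgG library gives no spread of its own, so their calls carry little weight. The cause of the lost calls was not tested.

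With limits of 50 kb or of the gene body, Satb1 had 1 region in place of 2. Bcl11a had 1 in the body in place of 3, and Bcl11b had 5 within 300 kb in place of 1. The median rank of the 9 regions was 2548 by mean signal, 4298 in Pou4f1 library 1 alone and 3585 by signal times length. The Brn3 consensus was in 2 central windows, and in 4 with 1 mismatch allowed. No paired analysis was possible because the IgG columns carry no replicate number. The unknown scaling and depth limit every comparison of Pou4f1 with IgG. Rescaling IgG moved the 4 regions with signal in 1 IgG library. It cannot move a value of 0, so it does not show how firm the regions at 0 in both IgG libraries are.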
